A study of Mus musculus with 12 samples.

Results

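The p53 feedback and growth arrest targets described here are 10 genes: Cdkn1a, Mdm2, Mdm4, Ppm1d, Ccng1, Btg2, Phlda3, Sfn, Psrc1 and Zmat3. They were taken by symbol from a table of 28991 mouse genes, and all 10 were present and passed the filter on low counts, as did 20370 genes in all. The study sequenced whole-kidney RNA in 4 groups of 3 male mice, 8 weeks old, of the inbred strain BALB/c. The combination mice received dichloroacetate at 250 mg per kg for 5 days, then dichloroacetate with a single dose of cisplatin at 20 mg per kg. The cisplatin mice received saline for 5 days and then the same single dose of cisplatin. The dichloroacetate mice received 250 mg per kg daily for 6 days, and the saline mice received saline daily for 6 days. All injections were intraperitoneal, and kidneys of mice given cisplatin were taken 24 h after it, so the responses below stand for a single early time. Cisplatin is a platinum drug that crosslinks DNA and is taken up by cells of the proximal tubule, and dichloroacetate inhibits the kinases that switch off pyruvate dehydrogenase.

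The protein p53 is a transcription factor that DNA damage stabilises through the kinases ATM and ATR. It binds pairs of short palindromic sites and switches on genes that halt the cell cycle, start repair or lead to cell death. Several of its targets act back on it: Mdm2 encodes a ubiquitin ligase that marks p53 for destruction, Mdm4 a relative that restrains p53 on its target genes, Ppm1d a phosphatase that removes damage-induced phosphates from p53 and its kinases, and Ccng1 cyclin G1, which brings a phosphatase to the Mdm2 protein. Others act on the cell: Cdkn1a encodes p21, the inhibitor of cyclin-dependent kinases through which p53 halts the cycle, and p21 is induced in the tubule in acute kidney injury.

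The promoters of the genes show where p53 could bind near a transcript start. RefSeq promoter windows (build GRCm38.p6, which is mm10), running from 250 bases before to 50 bases after each start, were found for 9 of the 10 genes, in 12 windows, and Zmat3 had no entry. They were searched for the p53 half-site consensus of 10 bases, which is its own reverse complement, so that 1 search covers both strands. A pair was 2 half-sites separated by at most 13 bases with at most 1 mismatch in all. The windows printed below are the 2 that hold a pair, the Mdm2 window with a single half-site, and the Sfn window, which has no exact half-site and belongs to the gene that differed most between the cisplatin groups. Each is written 5′ to 3′ on the gene's own strand, with capitals marking the unspaced pair or, for Mdm2, the half-site.

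Cdkn1a, upstream start, chr17:29090729-29091028, plus strand: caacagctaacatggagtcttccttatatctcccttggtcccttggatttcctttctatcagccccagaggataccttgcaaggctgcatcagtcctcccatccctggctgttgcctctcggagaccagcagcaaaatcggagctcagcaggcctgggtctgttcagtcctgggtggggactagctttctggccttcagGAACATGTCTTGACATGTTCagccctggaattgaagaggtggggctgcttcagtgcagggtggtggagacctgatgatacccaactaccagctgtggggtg
Ccng1, chr11:40755237-40755536, minus strand: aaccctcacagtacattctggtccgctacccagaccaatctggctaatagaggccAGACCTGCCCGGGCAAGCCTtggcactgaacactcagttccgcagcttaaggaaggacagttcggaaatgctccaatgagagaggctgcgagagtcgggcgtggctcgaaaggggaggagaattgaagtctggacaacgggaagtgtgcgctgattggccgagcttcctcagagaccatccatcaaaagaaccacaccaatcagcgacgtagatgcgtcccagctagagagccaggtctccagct
Mdm2, chr10:117710709-117711008, minus strand: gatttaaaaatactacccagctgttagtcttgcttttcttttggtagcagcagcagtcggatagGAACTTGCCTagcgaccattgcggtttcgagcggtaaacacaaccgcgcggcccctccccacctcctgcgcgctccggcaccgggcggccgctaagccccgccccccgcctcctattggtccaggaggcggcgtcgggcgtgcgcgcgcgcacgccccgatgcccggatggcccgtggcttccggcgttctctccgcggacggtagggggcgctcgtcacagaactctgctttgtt
Sfn, chr4:133602119-133602418, minus strand: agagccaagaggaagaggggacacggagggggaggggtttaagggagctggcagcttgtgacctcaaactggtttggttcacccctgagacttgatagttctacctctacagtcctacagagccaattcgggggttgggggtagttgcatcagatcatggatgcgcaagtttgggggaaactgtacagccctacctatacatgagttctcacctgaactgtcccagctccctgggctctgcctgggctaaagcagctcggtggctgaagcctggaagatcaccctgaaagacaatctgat

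The Cdkn1a pair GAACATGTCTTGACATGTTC lies at chr17:29090928-29090947, at positions -51 to -32 from the upstream start, with 1 mismatch to the consensus. That start is 2790 bases upstream of the other annotated Cdkn1a start, whose own window has no exact half-site. A further pair without mismatch overlaps it, with half-sites GGACTAGCTT and GAACATGTCT separated by 12 bases. The Ccng1 pair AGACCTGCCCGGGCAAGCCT lies at chr11:40755462-40755481, at positions -195 to -176 from the start, also with 1 mismatch. Mdm2 has GAACTTGCCT at positions -186 to -177 and Ppm1d has GAGCTTGCTC at positions -132 to -123. The well-studied p53-responsive promoter of Mdm2 lies in its first intron, outside the window. The windows of Mdm4, Btg2, Phlda3, Sfn and Psrc1 have no exact half-site, which says only that these letters are not in these windows. Over all 32851 promoter windows in the RefSeq table, 8.36% hold an exact half-site, 0.627% hold a pair and 0.067% hold an unspaced pair. A match is a description of the sequence, and binding was not measured.

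**Figure D1:**
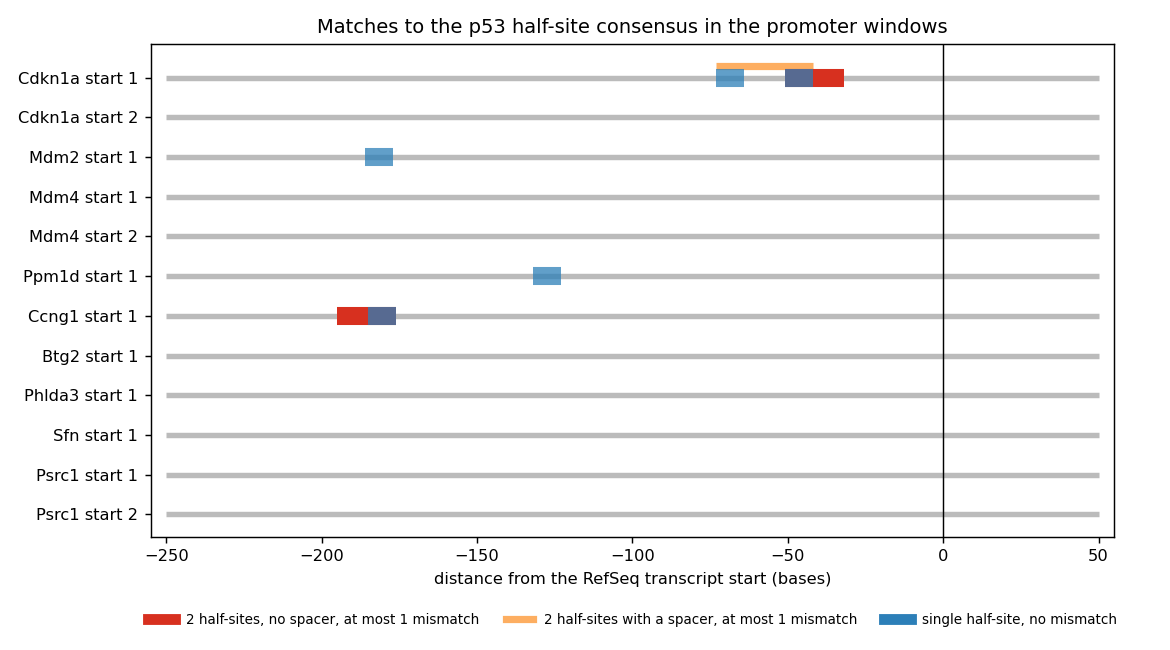
Matches to the p53 half-site consensus in the 12 promoter windows of 9 genes. The x axis is the distance in bases from the RefSeq transcript start, each row is 1 window, and colours mark unspaced pairs, spaced pairs and single half-sites. Unspaced pairs occur in the upstream Cdkn1a window, from -51 to -32, and in the Ccng1 window, from -195 to -176.

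Library totals were 29505929 to 35082408 counts in the combination, 29614283 to 35925471 in cisplatin, 41525403 to 62237514 in dichloroacetate and 38236592 to 55832441 in saline mice. Levels are given as CPM, the count relative to the TMM-scaled library total. Tests are edgeR's quasi-likelihood test over all 20370 genes, 2-sided, with Benjamini-Hochberg adjustment, and genes with an adjusted p below 0.05 were called. Proximal tubule markers, 10 in number and all called lower in cisplatin than in saline mice, summed to 5300 to 5850 CPM in the combination, 3064 to 3543 in cisplatin, 9876 to 10862 in dichloroacetate and 10832 to 12104 in saline mice. All 10 were called higher in the combination than in cisplatin mice. As a background for these and the following counts, 29.7% of all tested genes were called higher and 30.4% lower with cisplatin. In the combination, 18.1% were called higher and 13.5% lower than in cisplatin. Of 6 markers of the distal tubule and the loop of Henle, 5 were lower and 1 was higher with cisplatin, and 2 were higher and 1 lower in the combination than in cisplatin. They summed to 1600 to 2547 CPM in the combination, 1734 to 2246 in cisplatin, 3529 to 4033 in dichloroacetate and 3805 to 4361 in saline mice. All 5 erythroid markers were lower with cisplatin, with a median of -2.18, and none was called for the combination over cisplatin. They summed to 97.9 to 113 CPM in the combination, 65.5 to 133 in cisplatin, 236 to 644 in dichloroacetate and 248 to 613 in saline mice. The macrophage marker Cd68 was higher with cisplatin, at 4.00, and lower in the combination than in cisplatin, at -2.77. Of the other macrophage markers 2 were lower with cisplatin and 3 were not called, and all 5 were not called for the combination over cisplatin. The 6 summed to 64.8 to 70.9 CPM in the combination, 81.3 to 96.8 in cisplatin, 74.3 to 107 in dichloroacetate and 89.9 to 104.5 in saline mice. Of 4 neutrophil markers, 2 were higher with cisplatin, S100a8 and S100a9, from low levels of 0.116 and 0.240 CPM in saline mice. In the combination 2 were lower than in cisplatin, S100a9 among them, while S100a8 was not called (adjusted p = 0.069). The 4 summed to 17.5 to 22.5 CPM in the combination, 24.9 to 29.8 in cisplatin, 21.7 to 24.9 in dichloroacetate and 16.1 to 25.2 in saline mice. Most of this sum was Ly6g, at 15.9 to 20.7, 22.4 to 26.9, 19.7 to 23.6 and 14.8 to 23.8 CPM in the same order, so it mainly describes that gene. No marker in these lists was at 0 in all libraries, and their part in the results on p53 targets was not tested. In whole kidney, fewer cells of a type and less RNA per cell cannot be told apart.

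Cisplatin was compared with saline to measure the response of the kidney to the drug. Of the 10 genes, 9 rose and Mdm4 fell, against 60.1% of all tested genes called, 29.7% higher and 30.4% lower. The median log2 fold change was 3.18 over the 10 genes and -0.01 over all genes. In 9 genes every cisplatin mouse lay above every saline mouse, as in 32.2% of all genes, while 32.7% lay lower without overlap, 64.8% in all. The folds spanned a wide range, from Ppm1d at 1.68 to Cdkn1a at 101. By log2 fold change, Cdkn1a stood at position 10 of 20370 genes, Psrc1 at 19 and Phlda3 at 26, and Ppm1d at 2015.

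The combination was then compared with cisplatin alone to see how dichloroacetate changed these levels. Of the 10 genes, 8 were lower, none was higher, and Ccng1 and Mdm4 were not called, against 31.6% of all genes called and 13.5% called lower. The median was -0.65 over the 10 genes and 0.01 over all genes. In 9 genes every combination mouse lay below every cisplatin mouse, and Ccng1 overlapped, against 46.8% of all genes without overlap and 21.6% lying lower without overlap. All comparisons with the cisplatin group share its 3 libraries, and those with saline share the saline libraries, so each is given by its own values.

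**Figure D2:**
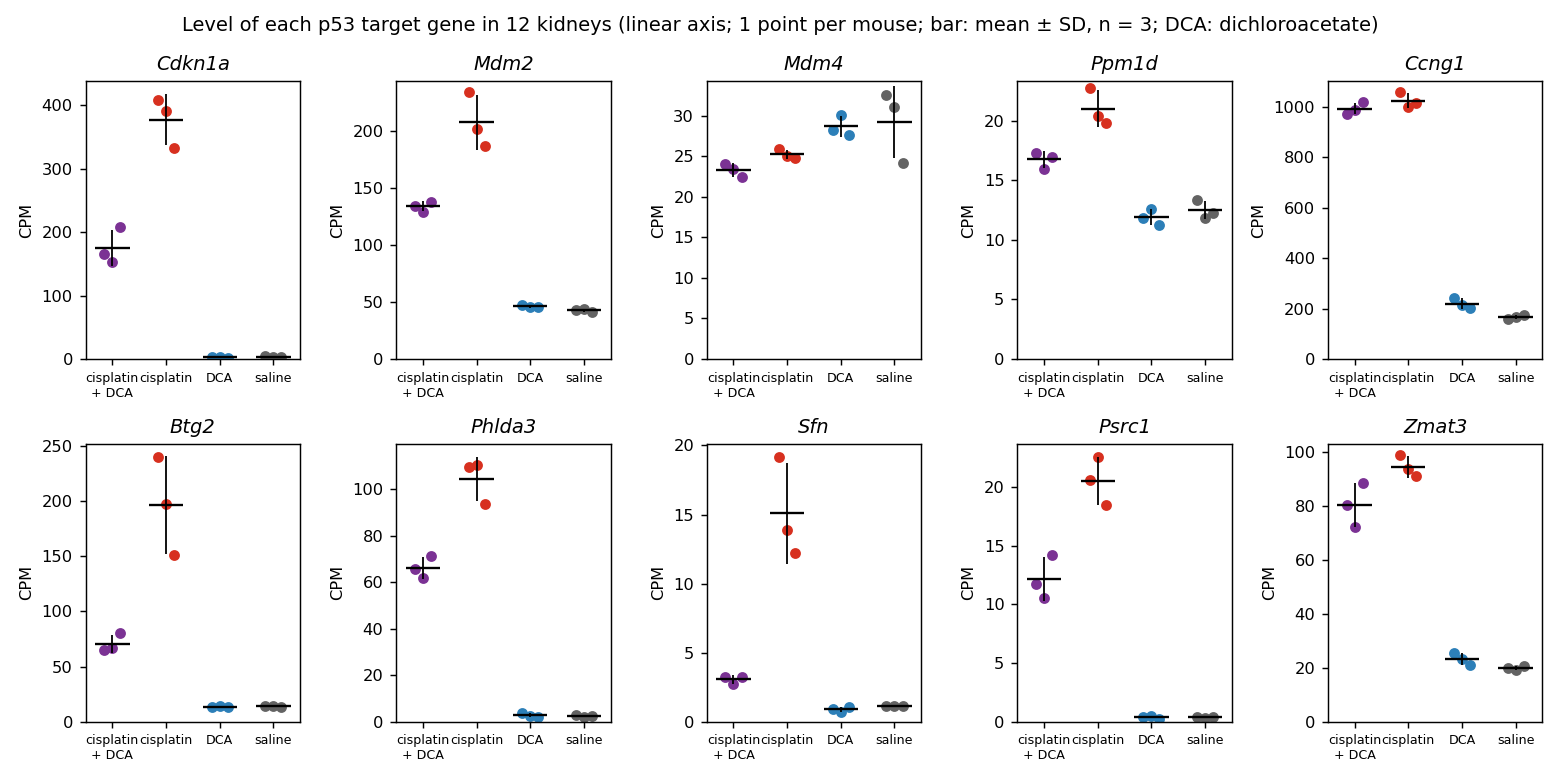
Level of each of the 10 genes in CPM on linear axes that start at 0, with 1 point per mouse and horizontal and vertical lines for the mean ± SD (n = 3). In 9 genes all cisplatin mice lie above all saline mice, and for Mdm4 the saline mice range from 24.2 to 32.5 CPM and overlap the cisplatin mice.

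Among the feedback genes, Mdm2 (ENSMUSG00000020184, chr10:117688875-117710758, minus strand) had 135, 129 and 138 CPM in combination mice and 234, 202 and 186 CPM in cisplatin mice. It had 47.6, 45.4 and 45.2 CPM in dichloroacetate mice and 43.2, 43.6 and 41.5 CPM in saline mice. The treated groups did not overlap each other or the mice without cisplatin. Cisplatin raised Mdm2 by 2.28 on the log2 scale (SE 0.08, adjusted p = 6.6e-11), and the combination was lower than cisplatin, at -0.63 (SE 0.07, adjusted p = 3.3e-05). Standard errors (SE) are those implied by the F statistic of the test.

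Ppm1d (ENSMUSG00000020525, chr11:85311244-85347066, plus strand) had the smallest rise of the 9 genes. It had 17.3, 16.0 and 16.9 CPM in combination mice, 22.7, 20.4 and 19.8 in cisplatin mice, 11.9, 12.6 and 11.3 in dichloroacetate mice and 13.4, 11.9 and 12.2 in saline mice. Saline and dichloroacetate mice overlapped, combination mice lay above them and cisplatin mice lay highest, with no overlap between these levels. The log2 fold change was 0.75 (SE 0.07, adjusted p = 1.4e-06) for cisplatin over saline and -0.33 (SE 0.07, adjusted p = 0.0044) for the combination over cisplatin.

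Ccng1 (ENSMUSG00000020326, chr11:40748552-40755311, minus strand) was the most abundant of the 10 genes per length in all 4 groups. It had 973, 987 and 1018 CPM in combination mice and 1057, 999 and 1015 CPM in cisplatin mice, and these overlapped. It had 243, 212 and 203 CPM in dichloroacetate mice, all above the 158, 168 and 174 CPM of saline mice. Cisplatin raised it by 2.62 on the log2 scale (SE 0.07, adjusted p = 1e-11). The combination differed from cisplatin by -0.04, with a 95% confidence interval of -0.18 to 0.09 (adjusted p = 0.65). Dichloroacetate alone was higher than saline by 0.40 (SE 0.06, adjusted p = 0.028). It was the only one of the 10 genes called in that comparison, in which 0.309% of all genes were called. This call was lost with only the 6 libraries of those groups in the fit (adjusted p = 0.20) and without saline replicate 1 (0.082), saline replicate 2 (0.091) or dichloroacetate replicate 1 (0.059).

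Mdm4 (ENSMUSG00000054387, chr1:132959484-133030561, minus strand) went the other way. It had 24.0, 23.4 and 22.4 CPM in combination mice, 25.8, 25.1 and 24.8 in cisplatin mice, 28.2, 30.1 and 27.6 in dichloroacetate mice and 32.5, 31.0 and 24.2 in saline mice. Saline replicate 3 lay below all cisplatin mice, so those groups overlapped, while the combination lay below saline and dichloroacetate mice without overlap. The log2 fold change was -0.22 (SE 0.09, adjusted p = 0.045) for cisplatin over saline and -0.33 (SE 0.09, adjusted p = 0.0085) for the combination over saline. For cisplatin the call was lost with only those groups in the fit (adjusted p = 0.11), with limma on the authors' normalised values (0.071), without saline replicate 1 (-0.14, 0.20) or 2 (-0.17, 0.16), and without any 1 cisplatin mouse (0.093 to 0.11). Without saline replicate 3 it was -0.33.

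The Mdm4 counts are uncertain, because 7.31% of the stretches of 50 bases in its annotated transcripts occur in other genes, 1092 of them in the pseudogene Mdm4-ps. That pseudogene has its own row in the count table, with 489 to 1079 counts per library, up to 87.6% of the Mdm4 count in the same library. Mdm4-ps averaged 16.3 ± 0.455 CPM in combination mice, 16.2 ± 0.964 in cisplatin mice, 19.9 ± 1.59 in dichloroacetate mice and 20.8 ± 0.303 in saline mice (SD, n = 3 each). It too was lower in cisplatin than in saline mice, at -0.36 (adjusted p = 0.00039). With both rows summed, a choice made after seeing the data, the change of Mdm4 with cisplatin was -0.27 (adjusted p = 0.0019).

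Among the arrest and signalling genes, Cdkn1a (ENSMUSG00000023067, chr17:29090976-29100727, plus strand) had the largest rise. It had 165, 153 and 207 CPM in combination mice and 408, 391 and 332 CPM in cisplatin mice. It had 3.34, 2.76 and 1.81 CPM in dichloroacetate mice, from 67 to 191 counts per library, and 4.72, 3.18 and 3.31 CPM in saline mice, from 115 to 213 counts. The cisplatin mice lay far above the mice without it, and the combination mice in between. The log2 fold change was 6.65 (SE 0.21) for cisplatin over saline, and the combination was lower than cisplatin, at -1.11 (SE 0.16, adjusted p = 0.00017), or 46.5% of the cisplatin mean. An unstranded kit was used, and an unclassified transcript on the opposite strand overlaps 273 bases of the Cdkn1a exons, so reads from either strand cannot be told apart there.

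Btg2 (ENSMUSG00000020423, chr1:134075170-134079120, minus strand) encodes an antiproliferative protein that binds the deadenylase complex that shortens mRNA tails. It had 65.4, 66.6 and 80.3 CPM in combination mice and 240, 198 and 151 CPM in cisplatin mice, the widest spread in relative terms among cisplatin mice after that of Sfn. It had 13.02, 13.8 and 13.8 CPM in dichloroacetate mice and 14.6, 14.0 and 13.1 CPM in saline mice, which overlapped. Cisplatin raised it by 3.82 (SE 0.15, adjusted p = 1.9e-10), and the combination was lower than cisplatin, at -1.47 (SE 0.13, adjusted p = 6.3e-06), which is position 123 from the lowest of 20370 genes.

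Sfn (ENSMUSG00000047281, chr4:133600556-133602168, minus strand) encodes stratifin, a scaffold protein of epithelia that in human cells keeps the mitotic kinase out of the nucleus. It had 3.25, 2.72 and 3.23 CPM in combination mice, 19.2, 13.9 and 12.2 CPM in cisplatin mice, 0.926, 0.696 and 1.08 CPM in dichloroacetate mice and 1.11, 1.11 and 1.15 CPM in saline mice. The combination mice lay above the mice without cisplatin and far below the cisplatin mice. Cisplatin raised it by 3.75 (SE 0.18, adjusted p = 1.6e-09), and in the combination it was lower than in cisplatin, at -2.30 (SE 0.17, adjusted p = 2e-06), position 34 from the lowest of all genes. Its counts were low, at 100 to 106 in the combination, 467 to 676 in cisplatin, 28 to 53 in dichloroacetate and 40 to 58 in saline mice, and 15.0% of its stretches of 50 bases occur in other annotated genes, mostly pseudogenes not used here. Urothelium also makes stratifin, and its 6 markers summed to 5.00 to 6.38 CPM in combination mice, 6.39 to 9.42 in cisplatin mice, 5.61 to 7.49 in dichloroacetate mice and 6.89 to 10.9 in saline mice. Of these markers 1, Krt5, was called higher and 5 were not called for cisplatin over saline, where 29.7% of all genes were called higher. For the combination over cisplatin Krt5 was called lower and 5 were not called, where 13.5% of all genes were called lower. Krt5 changed by 1.35 (adjusted p = 0.00097) and -2.11 (adjusted p = 0.00025) in these comparisons, and its response differed by -1.80 (adjusted p = 0.015). Its level was low, at 0.425 CPM in combination, 1.83 in cisplatin, 0.583 in dichloroacetate and 0.709 in saline mice. None of the 6 markers was at 0 in all libraries, and their part in the Sfn result was not tested.

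Phlda3 (ENSMUSG00000041801, chr1:135766119-135769136, plus strand) encodes a small protein that competes with the survival kinase Akt for membrane lipids. It had 65.6, 61.7 and 71.1 CPM in combination mice, 109, 111 and 93.7 CPM in cisplatin mice, 3.74, 2.59 and 2.02 CPM in dichloroacetate mice and 2.75, 2.24 and 2.53 CPM in saline mice. Both groups given cisplatin lay far above the dichloroacetate and saline mice, which overlapped. The log2 fold change was 5.39 (SE 0.16, adjusted p = 2.5e-11) for cisplatin over saline and -0.66 (SE 0.12, adjusted p = 0.00087) for the combination over cisplatin.

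Psrc1 (ENSMUSG00000068744, chr3:108383839-108388231, plus strand) encodes a microtubule-binding protein of the mitotic spindle. It had 11.8, 10.5 and 14.2 CPM in combination mice, 20.6, 22.5 and 18.4 CPM in cisplatin mice, 0.437, 0.473 and 0.270 CPM in dichloroacetate mice and 0.443, 0.307 and 0.431 CPM in saline mice. The levels without cisplatin rest on 10 to 25 counts per library with dichloroacetate and 15 to 20 with saline. Cisplatin raised it by 5.71 (SE 0.18, adjusted p = 4.5e-11), and the combination was lower than cisplatin, at -0.75 (SE 0.12, adjusted p = 0.00045).

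Zmat3 (ENSMUSG00000027663, chr3:32334792-32366014, minus strand) encodes a zinc finger protein that binds RNA. It had 80.5, 72.3 and 88.5 CPM in combination mice, 99.1, 93.6 and 91.0 CPM in cisplatin mice, 25.4, 23.2 and 21.2 CPM in dichloroacetate mice and 19.8, 19.1 and 20.7 CPM in saline mice. Every dichloroacetate mouse lay above every saline mouse, yet the difference of 0.23 was not called (SE 0.08, adjusted p = 0.27). Cisplatin raised Zmat3 by 2.25 (SE 0.08, adjusted p = 1.2e-10). The combination was lower than cisplatin, at -0.23 (SE 0.08, adjusted p = 0.032), a call lost without cisplatin replicate 1 (0.092) or 2 (0.067) or combination replicate 1 (0.080) or 2 (-0.16, 0.14).

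The response to cisplatin under dichloroacetate was measured as the combination over dichloroacetate alone, and 9 genes rose and Mdm4 fell in it (40.7% of all genes called, 21.5% higher). The log2 fold change was 6.02 (SE 0.21) for Cdkn1a, 4.91 (SE 0.18) for Psrc1, 4.53 (SE 0.15) for Phlda3 and 2.39 (SE 0.14) for Btg2. For Ccng1 it was 2.18 (SE 0.07), for Zmat3 1.79 (SE 0.08), for Sfn 1.76 (SE 0.21) and for Mdm2 1.54 (SE 0.07). Ppm1d reached 0.49 (SE 0.08) and Mdm4 was at -0.30 (SE 0.09, adjusted p = 0.015), which became 0.056 without dichloroacetate replicate 2. Against saline, the combination likewise had 9 genes higher and Mdm4 lower, all without overlap between the groups, with Cdkn1a at 5.55 (SE 0.20), position 4 of 20370 genes. In that comparison 40.2% of all genes were called, 20.6% higher and 19.6% lower, and 50.3% did not overlap, 26.7% of all genes lying higher. For dichloroacetate over saline, Mdm2, Ccng1 and Zmat3 lay higher and Sfn lower without overlap, as 7.64% and 8.37% of all genes did, and 9 of the 10 genes were not called.

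The difference of the responses, with dichloroacetate minus without, was tested as an interaction, in which 18.6% of all genes were called and 7.15% were called lower. It was negative in all 10 genes and called in 6. It was -1.98 for Sfn (SE 0.28, adjusted p = 0.00053), -1.44 for Btg2 (SE 0.19, adjusted p = 0.00032), -0.86 for Phlda3 (SE 0.22, adjusted p = 0.015) and -0.74 for Mdm2 (SE 0.10, adjusted p = 0.00042). For Zmat3 it was -0.47 (SE 0.11, adjusted p = 0.011) and for Ccng1 -0.44 (SE 0.09, adjusted p = 0.0046). The other 4 were not called, with 95% confidence intervals of -1.47 to -0.13 for Psrc1 (adjusted p = 0.094), -1.21 to -0.05 for Cdkn1a (0.12), -0.49 to -0.03 for Ppm1d (0.11) and -0.35 to 0.18 for Mdm4 (0.71). Those of Cdkn1a, Psrc1 and Ppm1d excluded 0 before adjustment over all genes. The median was -0.68 over the 10 genes and 0.03 over all genes.

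Some of these calls changed when 1 library was left out, which also leaves fewer libraries in the fit. Phlda3 was at -0.77 (adjusted p = 0.051) without saline replicate 2 and at -0.55 (0.053) without dichloroacetate replicate 1. Cdkn1a was called at -0.84 (0.045) without saline replicate 1 and at -0.82 (0.033) without dichloroacetate replicate 3, but was at -0.40 (0.38) without dichloroacetate replicate 1. Psrc1 was called at -0.96 (0.041) without combination replicate 3. For Ccng1, the smaller response under dichloroacetate came with a higher level in the dichloroacetate mice, 219 ± 20.9 against 167 ± 7.81 CPM in saline mice (SD, n = 3 each), and combination and cisplatin mice differed little, at 993 ± 23.2 and 1024 ± 29.9 CPM. For Sfn and Btg2 the combination itself was lower than cisplatin, at 20.3% and 36.0% of the cisplatin mean.

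**Figure D3:**
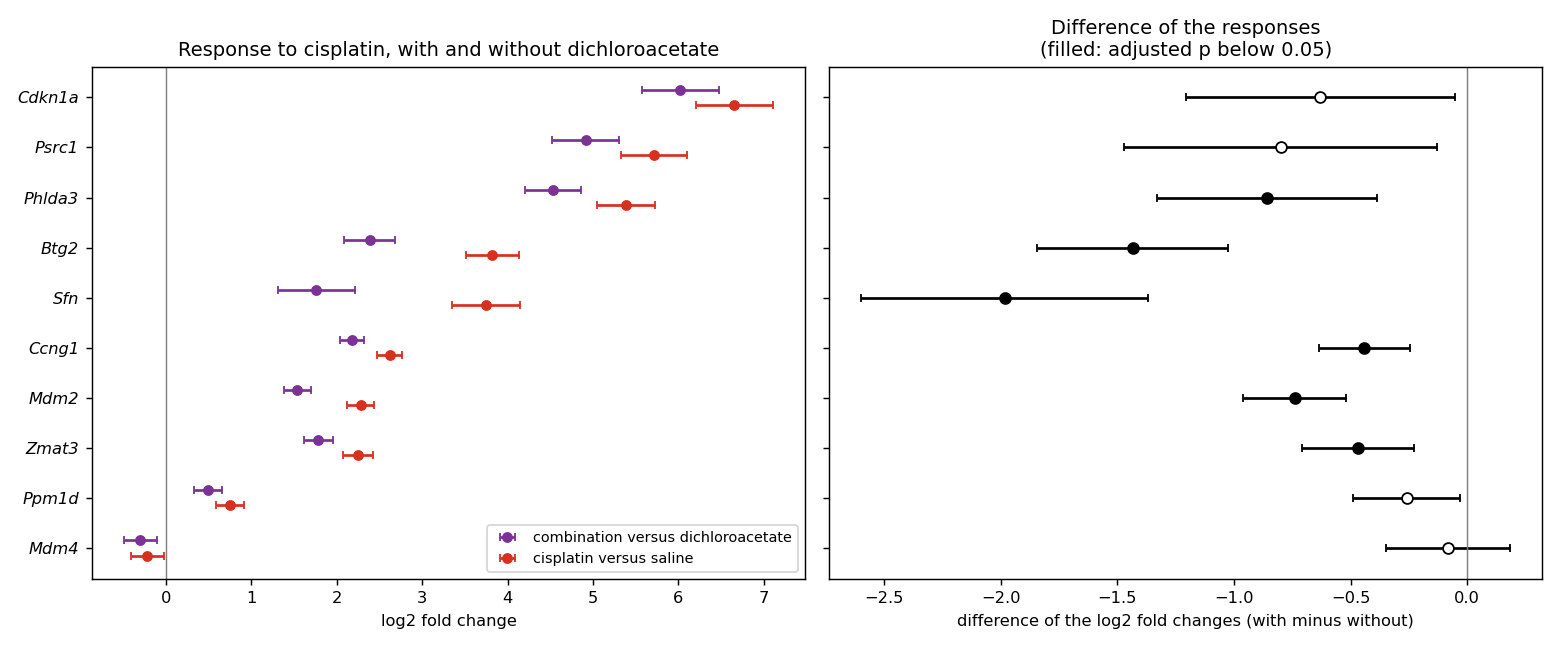
Left, log2 fold change of each gene after cisplatin, with dichloroacetate (combination over dichloroacetate) and without it (cisplatin over saline), with 95% confidence intervals; right, the difference between these responses, filled where the adjusted p was below 0.05. All 10 differences lie below 0, 6 of them called, and Sfn at -1.98 and Btg2 at -1.44 lie farthest.

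On the linear scale, the increase in CPM of combination over dichloroacetate mice was divided by that of cisplatin over saline mice, as a description with no test. This share was 90.2% for Ccng1 (87.9% to 93.2% over the combination mice) and 76.5% for Zmat3 (65.7% to 87.2%). It was 62.1% for Phlda3, 58.5% for Psrc1, 56.7% for Ppm1d, 53.3% for Mdm2 and 46.2% for Cdkn1a, whose ranges over the combination mice overlapped for each neighbouring pair in this order. Btg2 kept 31.3% (28.4% to 36.6%) and Sfn 15.5% (13.004% to 16.8%). All these ranges hold the other group means fixed, so they leave out the spread of the cisplatin mice. That spread (SD) was 22.6% of the mean for Btg2 and 24.2% for Sfn. Mdm4, which fell, has no such share.

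**Figure D4:**
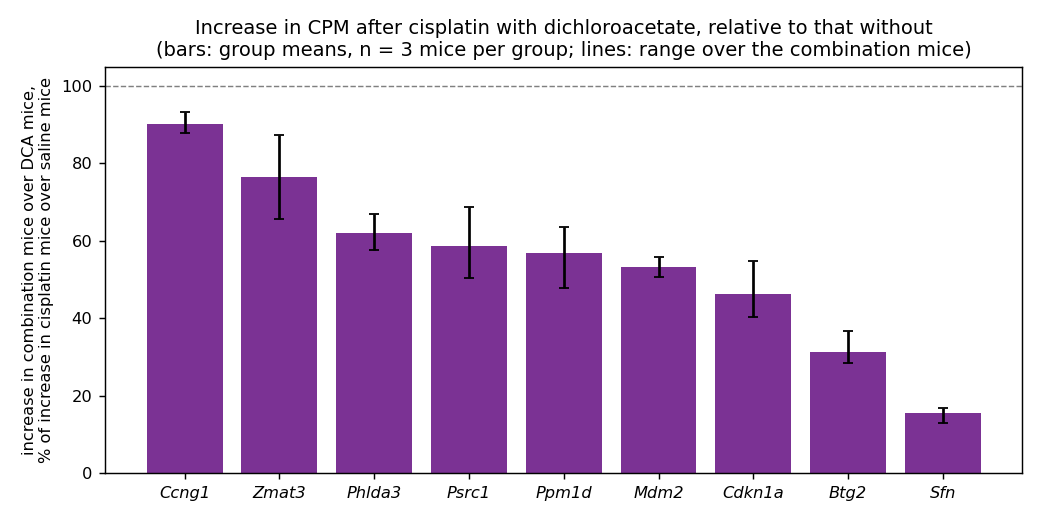
Increase in CPM of combination over dichloroacetate mice as a percentage of the increase of cisplatin over saline mice, for the 9 genes that rose. Bars are ratios of group means (n = 3 mice per group) and lines the range over the 3 combination mice, and the share runs from 90.2% for Ccng1 to 15.5% for Sfn.

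The order of the genes by level differed between groups. Divided by the length of the annotated exons in kb, the level in cisplatin mice was 291 CPM per kb for Ccng1, 106 for Cdkn1a, 71.6 for Btg2, 67.1 for Phlda3, 40.8 for Mdm2, 9.36 for Sfn, 8.27 for Zmat3, 6.62 for Ppm1d, 6.10 for Psrc1 and 1.70 for Mdm4. In saline mice it was 47.4 for Ccng1, 8.41 for Mdm2, 5.06 for Btg2, 3.93 for Ppm1d, 1.98 for Mdm4, 1.74 for Zmat3, 1.61 for Phlda3, 1.05 for Cdkn1a, 0.696 for Sfn and 0.117 for Psrc1. Cdkn1a thus stood next to the top in cisplatin mice and near the bottom in saline mice. In cisplatin mice the ranges of Btg2 and Phlda3, of Sfn and Zmat3, and of Ppm1d and Psrc1 overlapped, and in saline mice those of Mdm4 and Zmat3 and of Zmat3 and Phlda3. With the longest transcript as the length, parts of these orders changed. In cisplatin mice Ccng1 stayed at 291 CPM per kb, followed by Cdkn1a at 181, Phlda3 at 72.9, Btg2 at 71.6, Mdm2 at 66.0, Zmat3 at 12.1, Psrc1 at 10.2, Sfn at 9.36, Ppm1d at 7.24 and Mdm4 at 3.55. In saline mice Cdkn1a at 1.80 lay above Phlda3 at 1.75, and Mdm2 and Mdm4 kept their positions at 13.6 and 4.12.

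Within groups, combination replicate 3 was highest for 7 of the 10 genes and replicate 2 lowest for 7, and cisplatin replicate 1 was highest for 8 and replicate 3 lowest for 9. Dichloroacetate replicate 3 was lowest for 8, while the highest value fell to replicate 1 for 5 genes, to replicate 2 for 4 and to replicate 3 for 1. In saline mice the order was mixed, with the highest value in replicate 1 for 6 genes, in replicate 2 for 1 and in replicate 3 for 3. These genes share their libraries and their scaling, so the counts describe these mice only, and no test was made of them. Over the 12 libraries, the correlation of log2 CPM with Cdkn1a was 0.997 for Psrc1, 0.996 for Phlda3, 0.907 for Sfn and -0.70 for Mdm4, over points that fall into 4 groups.

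Outside the 10 genes, those whose pattern was most like each of them were named by the highest Pearson correlation among 16453 genes, as a description over 12 libraries that share 4 groups. Nearest to Cdkn1a was 1700007K13Rik (r = 0.998), which averaged 20.0 CPM in combination, 37.0 in cisplatin, 0.228 in dichloroacetate and 0.285 in saline mice. Nearest to Mdm2 was the p53 target Trp53inp1 (r = 0.997), and nearest to Phlda3 and Psrc1 was Inka2 (r = 0.999 and 0.996). Eda2r, a p53-induced receptor of the tumour necrosis factor family, was among the 3 nearest to Phlda3, Psrc1 and Zmat3, and the p53-induced nuclease Aen was nearest to Zmat3 (r = 0.996). Nearest to Btg2 was Rhbdf2 (r = 0.999), to Sfn Setd1a (r = 0.994), to Ccng1 Glrx3 (r = 0.997), to Ppm1d Fjx1 (r = 0.993) and to Mdm4 Fgf11 (r = 0.940). Ranking by Spearman correlation instead shared 1 of the 3 nearest genes for Mdm4 and Zmat3 and 0 for the other 8.

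Upstream of these targets, Trp53, which encodes p53 itself, averaged 35.2 ± 2.54 CPM in combination, 56.3 ± 6.48 in cisplatin, 26.6 ± 1.43 in dichloroacetate and 28.4 ± 1.13 in saline mice (SD, n = 3 each). Its mRNA rose by 0.99 with cisplatin, was lower in the combination than in cisplatin at -0.68, and its response differed by -0.59. Of 18 tested genes for p53, its kinases and its cofactors, 7 rose, 6 fell and 5 were not called for cisplatin over saline, with a median of 0.05, against 29.7% of all genes higher, 30.4% lower and a median of -0.01. Ppp1r13l, an inhibitor of p53, rose by 1.82, and the damage kinases Prkdc and Atm changed by -1.62 and -1.001. Trp63, a relative of p53 in basal epithelia, changed by -1.75 from low levels of 0.463 CPM in cisplatin and 1.56 CPM in saline mice.

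Of 32 other p53 target genes tested, 25 rose and 3 fell for cisplatin over saline and 4 were not called, with a median of 1.67, beside the same shares of all genes. For the combination over cisplatin 1 was higher, 19 were lower and 12 were not called, with a median of -0.32. Over all genes 18.1% were higher and 13.5% lower, with a median of 0.01. For the difference of the responses 2 were higher, 17 lower and 13 not called, with a median of -0.36. Over all genes 11.4% were higher and 7.15% lower, with a median of 0.03. Among the 32 targets, the largest changes with cisplatin were those of Eda2r at 5.72, the stress cytokine Gdf15 at 4.83 and the death effector Bbc3 at 4.03. The kinase Plk2 at 3.55 and the small GTPase Rap2b at 3.39 followed. Of these 5, Rap2b was lowest in the combination relative to cisplatin, at -1.43 (adjusted p = 8.2e-06).

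Of 25 tested cyclins, cyclin-dependent kinases and Rb-E2F genes, the machinery that p21 acts on, 12 rose, 6 fell and 7 were not called for cisplatin over saline, against 29.7% of all genes higher and 30.4% lower. Ccnd1, cyclin D1, averaged 128 ± 6.09 CPM in combination, 84.4 ± 5.30 in cisplatin, 207 ± 15.4 in dichloroacetate and 283 ± 19.8 in saline mice, a change of -1.74 with cisplatin. It was also lower with dichloroacetate alone than with saline, at -0.45 (adjusted p = 0.028), the only 1 of the 25 called there. In the combination it was higher than in cisplatin, at 0.60 (adjusted p = 5.1e-05), and its response differed by 1.05 (adjusted p = 6.7e-05). The proliferation marker Mki67 was low throughout, at 1.09 CPM in combination, 1.01 in cisplatin, 2.49 in dichloroacetate and 2.22 in saline mice, a change of -1.13 with cisplatin. Rbl2 also fell, at -0.95. Other genes of this list rose with cisplatin, Ccnb1 by 1.18 (adjusted p = 0.011) from a low level of 0.406 CPM in saline mice and Mcm2 by 0.89 (adjusted p = 1e-05). Of 5 other cyclin-dependent kinase inhibitors, Cdkn2b rose by 0.77 and Cdkn1c by 0.30, and Cdkn2d, Cdkn1b and Cdkn2c changed by -0.56, -0.35 and -0.28, all smaller than the change of Cdkn1a. Among 17 family relatives of the 10 genes, 11 rose, 2 fell and 4 were not called, beside the same 29.7% and 30.4% of all genes, led by Phlda1 at 1.82, the stratifin relatives Ywhah at 0.88 and Ywhag at 0.82, and the Btg2 relatives Tob1 at 0.82 and Btg3 at 0.81.

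**Figure D5:**
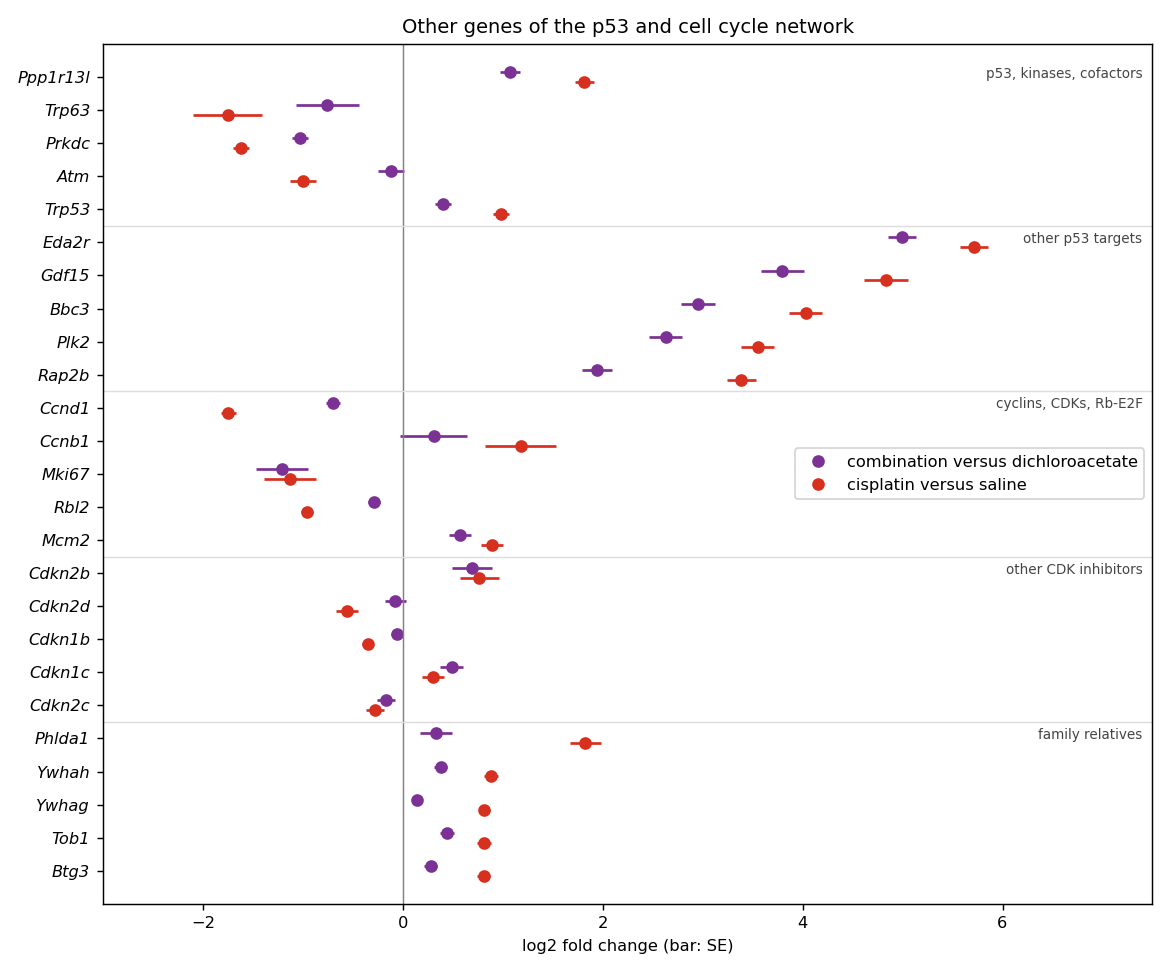
Log2 fold change (points) with SE (lines) after cisplatin, with dichloroacetate (combination over dichloroacetate) and without it (cisplatin over saline), for up to 5 genes of each of 5 lists: p53 and its regulators, other p53 targets, cell cycle genes, cyclin-dependent kinase inhibitors and relatives of the 10 genes. Among the genes drawn, Eda2r at 5.72 and Gdf15 at 4.83 lie highest and Trp63 at -1.75 and Ccnd1 at -1.74 lie lowest for cisplatin over saline.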

How the data were processed

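Whole-kidney RNA from 12 mice was sequenced after preparation with an Illumina TruSeq RNA kit, per the labels' protocols. The submitters' processing notes name Trimmomatic, TopHat, Cufflinks, HTSeq, bedtools, DESeq and build mm10, with roles not given in the sources used here. Whole-number read counts per Ensembl gene and library were deposited, and all results come from these. The authors also deposited a normalised signal, which equals the counts divided by 1 size factor per library and gives whole reads for 100.0% of values within 0.01. It served 1 alternative only. Of 28991 identifiers, 27955 matched GENCODE M21.

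Genes passing filterByExpr (20370) were fitted with edgeR 4.0.16 in R 4.3.3 by the quasi-likelihood test after TMM scaling, with all 12 libraries in 1 model, 8 residual degrees of freedom and a biological coefficient of variation of 0.092. The fit was tested on simulated counts. The series describes the replicates as biological, and chi-square per degree of freedom between replicates was 4.64 to 28.2, so each library counted once. With 3 mice a group, their number limits the precision, and how much low counts add to this was not measured gene by gene.

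The 10 genes and 17 further lists (172 entries, 170 matched) were chosen with earlier results of these data known, and the lists carry no test. From each list, up to 5 called genes with the largest change for cisplatin over saline are named, and for each of the 10 genes the 3 with the highest correlation of log2 CPM (prior count 2, mean of at least 1 CPM). Stretches of 50 bases were matched to GENCODE transcripts. Promoter sequences are from RefSeq. Alternatives were DESeq2 1.42.0 size factors and its Wald test, upper-quartile scaling, other count filters, a replicate block, limma 3.58.1 on the log2 normalised signal (pseudocount 1), only the groups compared, each library left out, and Mdm4 summed with its pseudogene.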

Additional observations from a re-analysis of the deposited data

Results flagged for a closer look

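The response to cisplatin differed between mice with and without dichloroacetate, by the interaction term of the edgeR fit with Benjamini-Hochberg adjustment over 20370 genes, in 6 of the 10 genes. Of all tested genes, 18.6% were called for this term and 7.15% were called lower. On the log2 scale, the response with dichloroacetate minus that without was -1.98 for Sfn, -1.44 for Btg2, -0.86 for Phlda3, -0.74 for Mdm2, -0.47 for Zmat3 and -0.44 for Ccng1. In Sfn, Btg2, Phlda3, Mdm2 and Zmat3 every combination mouse lay below every cisplatin mouse, as in 21.6% of all genes. The fitted folds of combination over cisplatin were 0.203, 0.360, 0.632, 0.645 and 0.850 in this order. In Ccng1 the combination and cisplatin mice overlapped, and the dichloroacetate mice lay above the saline mice. For Phlda3 the call was lost without saline replicate 2 (adjusted p = 0.051) or dichloroacetate replicate 1 (0.053).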

How the results depend on the processing

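Over the alternatives run, the number of the 10 genes called stayed at 9 or 10 for cisplatin over saline, 7 or 8 for the combination over cisplatin, 10 for the combination over saline, 9 or 10 for the combination over dichloroacetate and 5 to 7 for the difference of the responses. For dichloroacetate over saline it ranged from 0 to 1 when 1 library was left out and was 0 with only the groups compared, against 1 with all libraries, where fewer libraries were fitted. Directions turned only in uncalled values: for dichloroacetate over saline with 1 library left out, Mdm4 ranged from -0.15 to 0.049, Phlda3 from -0.11 to 0.37 and Psrc1 from -0.13 to 0.22, and Psrc1 was -0.015 with limma. For the difference of the responses Mdm4 ranged from -0.16 to 0.033. The cause was not tested. Deviations of same-numbered mice from their group means correlated at -0.095 to 0.152, over 0.1 in 4 of 18 pairs. Mice of different number were not compared, so this cannot decide whether the numbers pair the mice. With the replicate number as a block, the genes called among the 10 were 10, 8, 10, 10 and 1 in the comparisons above and for dichloroacetate over saline, and 6 for the difference of the responses, where Sfn was at -1.95 and Cdkn1a at -0.61, and calls over all genes for dichloroacetate over saline were 117 with the block, 309 with the DESeq2 Wald test and 63 without either. Low counts limit Psrc1 and Sfn in mice without cisplatin.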

Other observations

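Unspaced pairs of p53 half-sites with at most 1 mismatch occur in 22 of the 32851 RefSeq promoter windows, belonging to 22 genes, of which 7 were tested here, Cdkn1a and Ccng1 among them. For cisplatin over saline, 5 of the 7 were higher, 1 was lower and 1 was not called. Of all tested genes, 29.7% were called higher and 30.4% lower. Beside Cdkn1a and Ccng1, the higher ones were Gtse1, which encodes a microtubule-binding regulator of p53, at 5.28 (SE 0.25, adjusted p = 1.1e-09), the p53-induced ribosomal protein paralog Rps27l at 1.01 (SE 0.07, adjusted p = 3.4e-08) and the tubule claudin Cldn16 at 0.71 (SE 0.10, adjusted p = 2.9e-05). The folate enzyme Mthfd1 was lower, at -0.80 (SE 0.06, adjusted p = 1.4e-07), and Calhm2 stood at 0.34 (SE 0.14, adjusted p = 0.051). All p-values are those of the edgeR fit over all genes, and these genes were chosen after their values were seen. For the combination over cisplatin, 1 of the 7 was higher, 3 were lower and 3 were not called. Here 18.1% of all tested genes were called higher and 13.5% lower. Mthfd1 was higher at 0.50 (SE 0.06, adjusted p = 7e-05), Gtse1 was lower at -0.94 (SE 0.18, adjusted p = 0.0014), as were Cldn16 at -0.29 (SE 0.10, adjusted p = 0.036) and Cdkn1a, and Rps27l differed by 0.04 (SE 0.07, adjusted p = 0.70), which does not show that it was equal in both. The number of genes is small and binding was not measured.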
